A study of Homo sapiens with 6 samples.

Results

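The genes described here are 10 interferon-linked genes: the ADP-ribosyltransferase genes PARP9, PARP14, PARP12 and PARP10, the PARP9 partner DTX3L, the speckled protein genes SP140, SP110 and SP100, and the paralogues SAMD9L and SAMD9. They were chosen by name out of 18417 measured genes, each read from its brightest probe set annotated to a single gene symbol. The cells were RL, a human lymphoma cell line of B-cell origin with the t(14;18) translocation. Total RNA of RL cells given LY317615 (3 arrays; 2.5 mM for 48 h per the labels, a unit that could not be checked) was compared with that of untreated RL cells (3 arrays, with 48 h in their titles and no vehicle named). LY317615 (enzastaurin) inhibits kinases and was made to target protein kinase C beta, and the comparison asks which transcripts differed after treatment. All samples were of 1 cell line.

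Interferons signal through receptors and Janus kinases to transcription factors, among them IRF9, which bind interferon-stimulated response elements in the promoters of their target genes. PARP enzymes attach ADP-ribose to proteins or nucleic acids; most interferon-linked members of the family add single units. PARP9, first described as a B-aggressive lymphoma protein, forms a complex with the ubiquitin ligase DTX3L. SP100, SP110 and SP140 are nuclear body proteins that bind chromatin, and SP140 is found mainly in lymphoid cells. SAMD9 and SAMD9L are neighbouring paralogues whose proteins restrict poxviruses and restrain cell growth.

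Upstream DNA of these genes is shown first because several share a promoter and because the response element can be looked for in it. RefSeq promoter windows (GRCh38.p14, 250 bases before to 50 after each start) were available for 9 of the 10 genes. The letters searched, on both strands, were GAAA followed after any 2 bases by another GAAA, a core of the response element. It was found in 5 of the 9 genes, PARP9, DTX3L, PARP14, PARP12 and SAMD9, against 4.38% of 27305 genes with such a window (3.57% of 35116 windows). After the sequences were seen, the same letters with a spacing of 3 bases were also searched, and that pattern was found in SP110 and SP140, against 3.54% of genes (2.86% of windows). Neither was found in the windows of SP100 and SAMD9L, and no match of the first pattern overlapped one of the second in these genes. The palindrome TTCNNNGAA was found in PARP14 and in the window of a further SP110 start, against 9.38% of genes (7.66% of windows), and overlapped neither of the other patterns. Each stretch below has 80 bases, 5′ to 3′ on the gene's own strand. A match of either spacing is in capitals, on whichever strand it lies. In SP110 the match is of the 3-base spacing.
PARP9 (chr3:122564301-122564380, minus strand, shared with DTX3L): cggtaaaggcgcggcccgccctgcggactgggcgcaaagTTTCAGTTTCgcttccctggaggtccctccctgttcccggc
PARP14 (chr3:122680759-122680838, plus strand): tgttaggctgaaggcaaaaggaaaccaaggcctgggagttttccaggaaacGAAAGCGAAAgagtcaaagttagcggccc
PARP12 (chr7:140062952-140063031, minus strand): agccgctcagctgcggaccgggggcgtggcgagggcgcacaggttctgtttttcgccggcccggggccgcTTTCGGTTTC
SP110 (chr2:230225692-230225771, minus strand, shared with SP140): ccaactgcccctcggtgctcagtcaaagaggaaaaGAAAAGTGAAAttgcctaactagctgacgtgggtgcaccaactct
SP100 (chr2:230416121-230416200, plus strand): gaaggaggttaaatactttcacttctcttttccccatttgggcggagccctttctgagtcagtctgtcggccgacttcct
SAMD9L (chr7:93148386-93148465, minus strand): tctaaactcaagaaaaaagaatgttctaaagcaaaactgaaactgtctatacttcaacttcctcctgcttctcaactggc
SAMD9 (chr7:93118071-93118150, minus strand): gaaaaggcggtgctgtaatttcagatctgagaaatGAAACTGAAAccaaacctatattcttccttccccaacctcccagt

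PARP9 and DTX3L point away from each other with 38 bases between their listed starts, and their windows share 137 bases (chr3:122564251-122564387). The single match in that shared stretch is therefore the match of both genes. SP110 and SP140 are arranged in the same way, with 100 bases between starts and 199 shared bases (chr2:230225587-230225785). Here too 1 match serves both windows, and the further SP110 start, in a window of its own, has another match. Across all measured genes with a window, 15.3% of the 587 genes with the 2-base spacing were called higher with LY317615, against 13.3% of the 13652 genes without it. A match is a description of letters and not a measured binding site. Only these exact patterns were searched, so a missing match does not show that a response element is absent.

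After 48 h with LY317615, RNA of 8 of the 10 genes was higher than in untreated cells. SAMD9L and SP140 had the largest differences, at 2.11-fold (95% interval 1.78 to 2.50) and 1.94-fold (1.69 to 2.23). All 5 genes of the PARP and DTX3L group rose, by 1.32-fold to 1.81-fold. SP100 and SAMD9 did not pass the test, at 1.13-fold (0.986 to 1.29) and 1.14-fold (0.966 to 1.34). In these bulk samples, a change in the share of cells of one kind and a change in RNA per cell cannot be told apart.

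A gene was called when its Benjamini-Hochberg adjusted p over all 18417 genes was below 0.05 in limma. Of all genes 35.7% were called, 14.2% higher and 21.4% lower, against 8 of 10 higher and 0 of 10 lower here (0 lower also at an unadjusted p below 0.05). All 10 differences were positive, compared with 52.8% of all genes. Their median was 0.59 on the log2 scale, and the median over all genes was 0.02. Among the 6280 genes between the dimmest and the brightest of the 10 in mean intensity, 11.3% were called higher and 41.1% lower, with a median of -0.17. The treated and untreated arrays did not overlap in 8 of the 10 genes, against 49.8% of all genes, and those 8 were all higher, against 22.0% of all genes. In the intensity range of the 10, lack of overlap in either direction was more common, at 4289 of the 6280 genes. The 10 genes were chosen with earlier results of these arrays known, so their count is a description.

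Median probe-set intensities were 60.0 to 61.4 in the LY317615 group and 56.7 to 58.2 in the untreated group. LY317615 replicate 3 stood apart: limma weighted it 0.376, and the remaining arrays 1.04 to 1.51. It was the lowest of the treated arrays in 8 of the 10 genes, and untreated replicate 1 was the lowest untreated array in 7. Without LY317615 replicate 3 the same 8 genes passed and SP100 was added. The line read as B cells: the summed intensity of 7 measured B-cell markers was 7190 to 7880 in treated and 10300 to 10800 in untreated cells, and 6 of the 7 were called lower. Sums were 396 to 458 in treated and 306 to 323 in untreated cells for 7 T-cell markers, 178 to 212 and 145 to 152 for 6 myeloid markers, and 2460 to 2590 and 3020 to 3150 for 4 plasma-cell markers. In these lists 3 T-cell and 3 myeloid markers were called higher and 1 plasma-cell marker, XBP1, lower. Mean log2 intensities were low, at 4.0 to 7.4 for the T-cell and 3.2 to 5.4 for the myeloid markers. Which of these stood above background was not determined. XBP1 was by far the brightest plasma-cell marker and made up most of that sum, at a mean log2 intensity of 11.17 in treated and 11.50 in untreated cells. SDC1, PRDM1 and IRF4 were not called, at log2 fold changes of 0.23, 0.30 and 0.13. The part of all these markers in the results was not tested. PRKCB, the gene of the kinase the compound was developed against, was dim, at a mean log2 intensity of 4.99 in treated and 4.99 in untreated cells and among the dimmest 30% of genes, so its log2 fold change of -0.001 ± 0.078 (SE) says little about it. The design text describes independent replicates without naming separate cultures. The p-values therefore reflect array-to-array spread alone, which may be technical, and the number of arrays limits the precision.

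**Figure D1:**
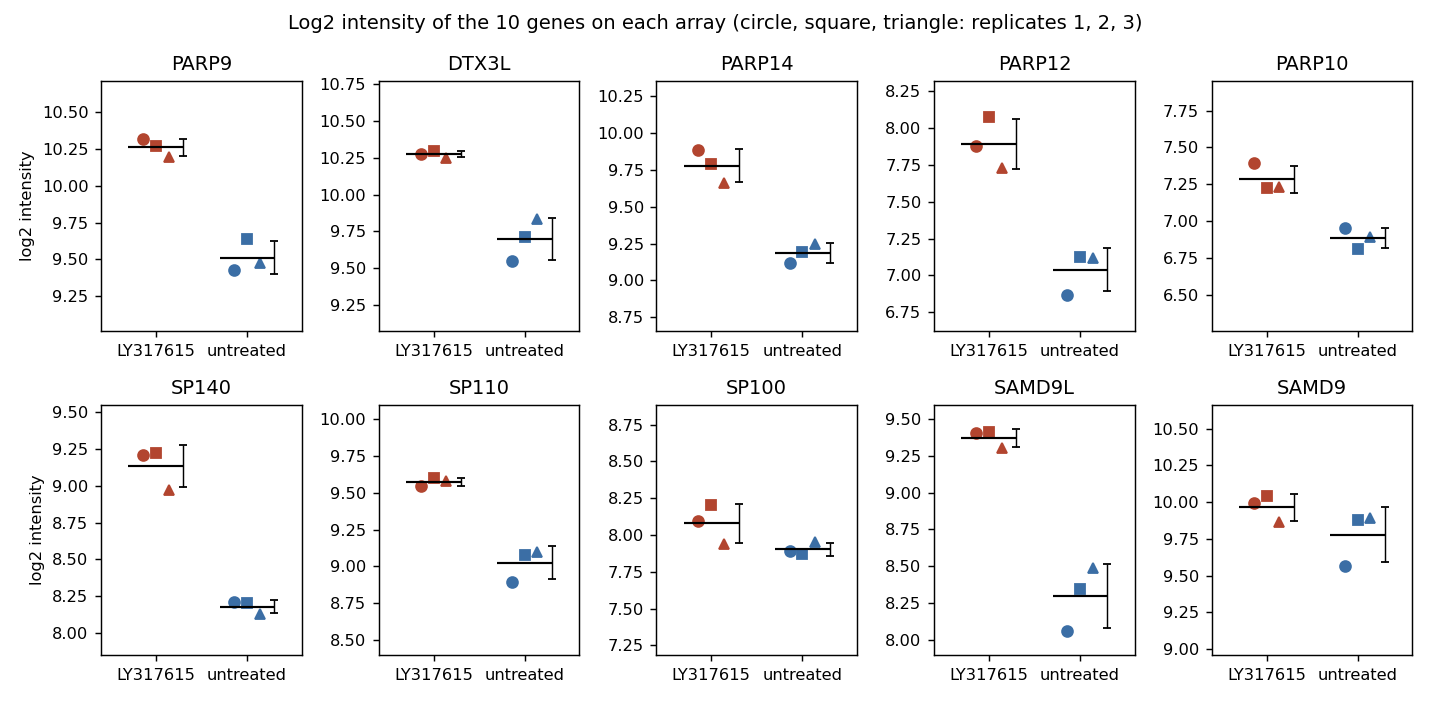
Log2 intensity (vertical axis, 1 panel a gene, the same span in each) of the 10 genes on 3 LY317615 arrays (red) and 3 untreated arrays (blue); lines are means and bars SDs. Treated arrays lie above all untreated arrays in 8 panels, and the groups overlap for SP100 and SAMD9.

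The ADP-ribosyltransferase group rose throughout. PARP9, whose macrodomains read ADP-ribose, had log2 intensities of 10.32, 10.27 and 10.20 on the LY317615 arrays, against 9.43, 9.64 and 9.47 on the untreated arrays. All treated values lay above all untreated ones, and it rose by 0.75 ± 0.08 on the log2 scale (SE, adjusted p = 0.000269). Its partner DTX3L, a deltex-type ubiquitin ligase, had 10.28, 10.29 and 10.25 in treated cells and 9.55, 9.71 and 9.84 in untreated cells. The treated values lay close together, the untreated ones were more spread, and the groups did not overlap (0.58 ± 0.09, adjusted p = 0.00135).

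PARP14, a mono-ADP-ribosyltransferase with macrodomains that lies near PARP9 and DTX3L on chromosome 3, had 9.89, 9.79 and 9.66 in treated cells and 9.12, 9.20 and 9.25 in untreated cells. The groups were apart, and the change was 0.59 ± 0.08 (SE, adjusted p = 0.000942). PARP12, a zinc-finger mono-ADP-ribosyltransferase on chromosome 7, gave 7.88, 8.07 and 7.73 with LY317615 and 6.87, 7.13 and 7.12 without. This was the largest rise of the group, 0.86 ± 0.11 (adjusted p = 0.00056), and also the one with the widest spread among treated arrays. PARP10, a mono-ADP-ribosyltransferase on chromosome 8, had the smallest rise: 7.39, 7.23 and 7.23 in treated cells and 6.95, 6.81 and 6.89 in untreated cells, a change of 0.40 ± 0.08 (adjusted p = 0.00543). Even so its groups did not overlap.

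The speckled protein genes differed among themselves. SP140, a bromodomain protein of lymphoid cells, had log2 intensities of 9.21, 9.22 and 8.97 in treated cells, against 8.21, 8.20 and 8.13 in untreated cells. The lowest treated array stood well above the highest untreated array, and SP140 rose by 0.95 ± 0.09 on the log2 scale (SE, adjusted p = 0.00013). SP110, its head-to-head neighbour, had 9.54, 9.60 and 9.58 with LY317615 and 8.89, 9.08 and 9.10 without. It rose by 0.55 ± 0.08 (adjusted p = 0.00111), again with no overlap.

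SP100, a component of PML nuclear bodies, had 8.10, 8.20 and 7.94 in treated cells and 7.89, 7.87 and 7.95 in untreated cells. Replicate 3 of the treated cells lay inside the untreated range, and the log2 fold change of 0.18 ± 0.09 (SE) did not pass (adjusted p = 0.143). It passed without LY317615 replicate 3, at 0.25 (adjusted p = 0.0413), and after cyclic loess, a rescaling that evens out intensity-dependent shifts between arrays, at 0.32 (adjusted p = 0.0113). A further probe set, annotated to SP100 together with CTCFL and HMGB1, was not used. It went the other way, at -0.20 ± 0.08 (SE, in a fit of all probe sets).

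The SAMD9 paralogues parted. SAMD9L had log2 intensities of 9.40, 9.41 and 9.30 in treated cells and 8.06, 8.34 and 8.48 in untreated cells. It showed the largest change of the 10 genes, 1.08 ± 0.11 (SE, adjusted p = 0.000185), at rank 44 of 18417 genes ordered by rise. SAMD9 had 9.99, 10.04 and 9.86 in treated cells and 9.57, 9.88 and 9.89 in untreated cells. Untreated replicates 2 and 3 reached into the treated range, untreated replicate 1 was lower, and the change of 0.19 ± 0.10 did not pass (adjusted p = 0.192). After cyclic loess SAMD9 passed too, at 0.41 (adjusted p = 0.0138).

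Related genes were set against each other within each array, in 6 comparisons with an exact permutation test over the arrays, two-sided and adjusted over the 6. With 3 arrays against 3 this exact test cannot go below p = 0.1, so none of these differences could pass 0.05. SAMD9L minus SAMD9 was -0.59 ± 0.04 in treated and -1.48 ± 0.06 in untreated cells (SD, n = 3 each), so SAMD9L changed by 0.89 more than SAMD9 on the log2 scale (exact p = 0.1, adjusted p = 0.12). These within-array values were tightly grouped, and the groups were far apart. SP140 changed by 0.78 more than SP100 and by 0.40 more than SP110, and SP110 by 0.38 more than SP100 (exact p = 0.1 and adjusted p = 0.12 for each). None of these 3 comparisons had overlapping groups.

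The genes of the chromosome 3 cluster moved by more similar amounts. PARP9 minus DTX3L was 0.04, -0.02 and -0.06 on the treated arrays and -0.12, -0.07 and -0.36 on the untreated arrays. PARP9 thus changed by 0.17 more than DTX3L (exact p = 0.1, adjusted p = 0.12), a difference of 0.08 without untreated replicate 3. PARP14 minus PARP9 was -0.48 ± 0.05 in treated and -0.33 ± 0.11 in untreated cells (SD, n = 3 each), a difference of -0.16 with overlapping groups (exact p = 0.2, adjusted p = 0.2). A p above the threshold does not show that the genes moved alike.

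**Figure D2:**
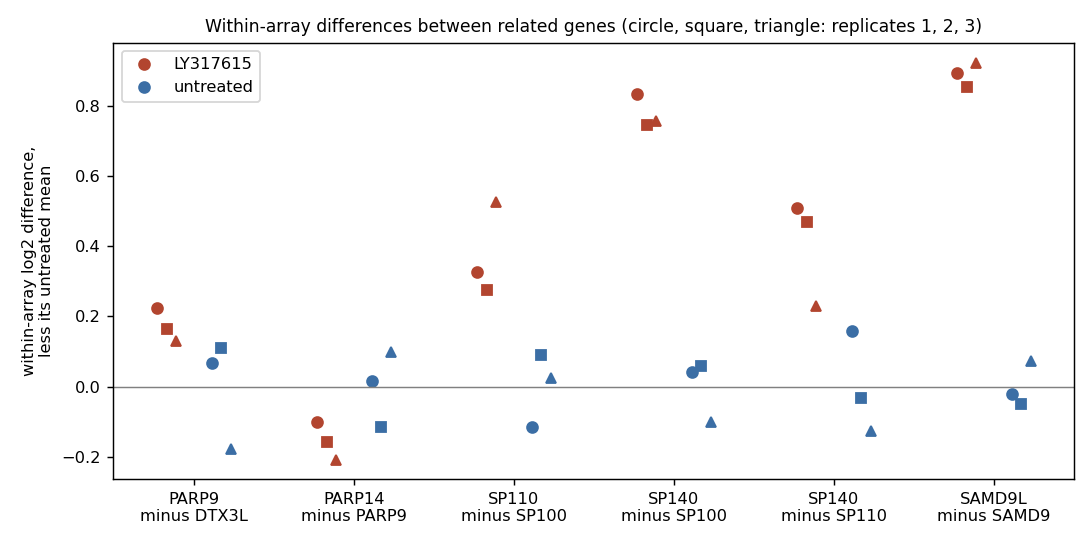
Within-array log2 difference between related genes, less its mean over untreated arrays (vertical axis), for 6 comparisons on LY317615 arrays (red, left) and untreated arrays (blue, right). SAMD9L minus SAMD9 and SP140 minus SP100 lie farthest from the untreated arrays, while PARP14 minus PARP9 overlaps them.

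The clusters were then read gene by gene in chromosomal order. On chromosome 3, PARP15 lies between DTX3L and PARP14, which both rose, and its own log2 fold change was 0.01 (95% interval -0.17 to 0.20, adjusted p = 0.928). On chromosome 2, SP140L lies between SP140 and SP100 and had -0.02 (-0.18 to 0.15, adjusted p = 0.863). PARP15 and SP140L, paralogues of the genes beside them, were singled out after their values were seen. Over the 32 measured genes nearest to the 10, up to 3 on each side of a gene, 3 rose and 10 fell, with a median of 0.004. The called share, 40.6%, was near the 35.7% of all genes. After cyclic loess 6 rose and 8 fell.

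Genes next to the 10 included some that fell. HSPBAP1, beside PARP14, changed by -0.73 ± 0.10 (SE, adjusted p = 0.000591). RBM48, near SAMD9, changed by -0.75 ± 0.10 (adjusted p = 0.000637). KDM7A, a histone demethylase gene next to PARP12, changed by -1.37 ± 0.09 (adjusted p = 3.45e-05), while SLC37A3, on its far side, rose by 0.48 ± 0.07 (adjusted p = 0.00138).

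**Figure D3:**
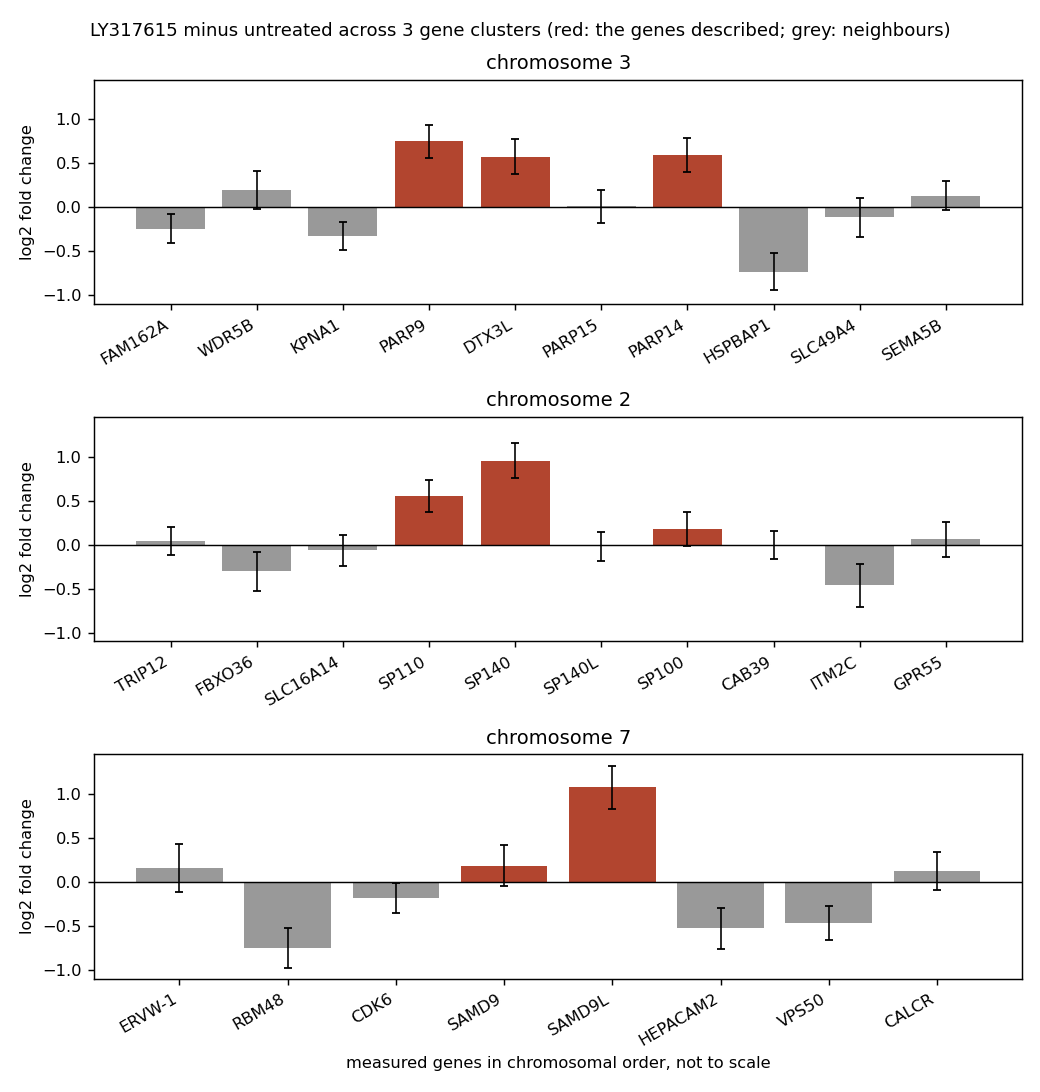
Log2 fold change, LY317615 minus untreated (vertical axis), of measured genes in chromosomal order (horizontal axis, not to scale) in the PARP9, SP140 and SAMD9L clusters; bars start at 0 and error bars are 95% intervals. The bars of the genes described (red) stand above 0, though the intervals of SP100 and SAMD9 include 0. PARP15 and SP140L between them lie at 0.01 and -0.02.

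The rest of the PARP family was mixed. Of 13 measured relatives 4 fell and 1 rose (38.5% called, against 35.7% of all genes), with a median of -0.08. PARP3, a DNA-repair PARP, had log2 intensities of 5.74, 5.92 and 5.50 in treated cells and 6.42, 6.44 and 6.57 in untreated cells. Its groups were apart, and it changed by -0.75 ± 0.11 (SE, adjusted p = 0.00109). PARP2, another repair PARP, changed by -0.38 ± 0.08 (adjusted p = 0.00843) and TIPARP, a target of the aryl hydrocarbon receptor, by -0.33 ± 0.07 (adjusted p = 0.00715); both calls were lost after cyclic loess (adjusted p = 0.114 and 0.219). PARP6 rose by 0.26 ± 0.07 (adjusted p = 0.0209). The balance of the list turned with the scaling: after cyclic loess 3 rose and 1 fell, and with array medians set equal 0 rose and 5 fell, where PARP6 lost its call (adjusted p = 0.0807). The count was 3 lower and 0 higher without any 1 of the 3 untreated replicates or without LY317615 replicate 2, and in each of these PARP6 lost its call (adjusted p = 0.0579 to 0.069).

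Among genes that remove or read ADP-ribose, 4 of 10 measured fell and 2 rose, with a median of 0.03 (60.0% called, against 35.7% of all genes). PARG, the glycohydrolase that takes apart poly-ADP-ribose chains, changed by -0.50 ± 0.10 (SE, adjusted p = 0.00544), OARD1 by -0.35 ± 0.09 (adjusted p = 0.0123) and ADPRS, a serine ADP-ribosylhydrolase gene, by -0.34 ± 0.10 (adjusted p = 0.0273). CHD1L, a chromatin remodeller that binds poly-ADP-ribose, rose by 0.38 ± 0.08 (adjusted p = 0.006). After cyclic loess 1 fell and 1 rose, and 2 fell and 1 rose without untreated replicate 2, untreated replicate 3 or LY317615 replicate 3. ADPRS kept its call on leaving out LY317615 replicate 1 and lost it on leaving out any other array (adjusted p = 0.0512 to 0.093). Of the 4 other deltex genes 1 was called (25.0%, against 35.7% of all genes). This was DTX1, which rose by 0.37 ± 0.09 (adjusted p = 0.0115).

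The wider set of PML-body genes and SP relatives was mixed as well. Of 12 measured genes 3 fell and 2 rose, with a median of -0.14. The called share, 41.7%, was near that of all genes. ATRX, a chromatin remodeller of PML bodies, changed by -0.43 ± 0.07 (SE, adjusted p = 0.00224), SUMO3 by -0.34 ± 0.07 (adjusted p = 0.00792) and the histone chaperone gene ASF1A by -0.33 ± 0.08 (adjusted p = 0.00986). AIRE, a relative of SP100 with a SAND domain, rose by 0.32 ± 0.09 (adjusted p = 0.0203). After cyclic loess 1 fell and 2 rose, and without untreated replicate 1 or untreated replicate 2 there were 3 lower and 0 higher. AIRE lost its call without either of these or LY317615 replicate 3 (adjusted p = 0.0517 to 0.0804).

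**Figure D4:**
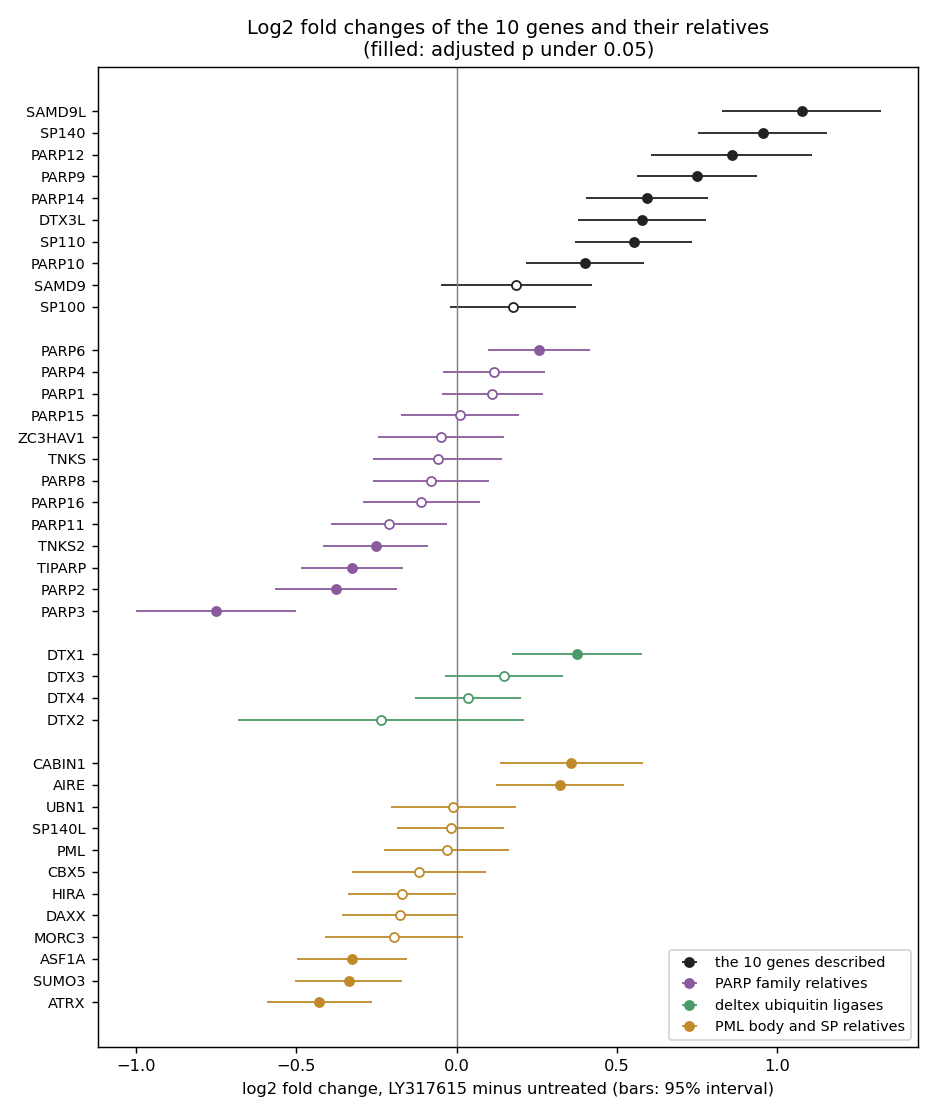
Log2 fold change, LY317615 minus untreated (horizontal axis; bars are 95% intervals from limma), of the 10 genes and 3 groups of relatives; filled points passed an adjusted p of 0.05. The 10 genes run from 0.18 to 1.08, and PARP3 lies lowest at -0.75.

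Genes upstream of an interferon response were called at about the rate of all genes (35.7%) when both directions were pooled, but not with the same balance. Of 10 measured receptor, kinase and transcription factor genes 3 rose and 1 fell, with a median of 0.08. Of all genes, 14.2% were called higher and 21.4% lower, so higher calls were the more common here and lower calls among all genes. This difference in direction rests on few genes and was not tested. The kinase gene TYK2 rose by 0.37 ± 0.09 (SE, adjusted p = 0.0137), the transcription factor gene IRF7 by 0.30 ± 0.08 (adjusted p = 0.0141) and the interferon gamma receptor gene IFNGR1 by 0.22 ± 0.07 (adjusted p = 0.0374). IFNAR1, a chain of the type I receptor, changed by -0.26 ± 0.07 (adjusted p = 0.022). After cyclic loess its change was -0.04 (adjusted p = 0.644), and 4 genes of the list rose and 0 fell. The count was 2 higher and 0 lower without untreated replicate 1 or 2, and 1 higher and 0 lower without untreated replicate 3. IFNGR1 kept its call without LY317615 replicate 3 and lost it without any other array (adjusted p = 0.0799 to 0.103) and with array medians set equal (adjusted p = 0.146).

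IRF9, a transcription factor gene whose protein binds response elements, had 8.44, 8.36 and 8.23 in treated cells and 8.30, 8.46 and 8.48 in untreated cells. These overlapped, and the change was -0.07 ± 0.09 on the log2 scale (SE, adjusted p = 0.558). Of 16 measured interferon genes 0 were called in limma, and 2 were higher at an unadjusted p below 0.05. These were IFNG at 0.34 ± 0.13 (adjusted p = 0.0607) and IFNL3 at 0.31 ± 0.13 (adjusted p = 0.0859). IFNG passed without untreated replicate 2 (adjusted p = 0.0295) or LY317615 replicate 1 (adjusted p = 0.0245), and IFNL3 without LY317615 replicate 2 (adjusted p = 0.0327). IFNA genes are close copies whose probes may be shared. Only 3 of the 16 interferon genes, IFNL3 among them, lay outside the dimmest 30% of genes. Without detection calls, which of the 16 stood above background was not determined.

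The genes whose profiles lay nearest to the mean profile of the 10, each centred on its own mean over the 6 arrays, were PBX3, SAMHD1, IFIT5, TTC21A and ELAC1, at root-mean-square distances of 0.03 to 0.05 on the log2 scale. SAMHD1, a nucleotide hydrolase that restricts viruses, rose by 0.56 ± 0.08 (SE), and IFIT5, an interferon-induced RNA-binding protein gene, by 0.53 ± 0.08. PBX3, a homeobox transcription factor gene, rose by 0.57 ± 0.08. TTC21A and ELAC1 rose by 0.58 ± 0.09 and 0.63 ± 0.10. Adjusted p ran from 0.000807 to 0.00128 over these 5 genes, which were picked for this likeness.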

How the data were processed

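Total RNA of 3 LY317615 and 3 untreated RL samples was hybridised to Affymetrix Gene 1.0 ST arrays. The authors deposited linear intensities of 33297 probe sets. The submitters' processing notes name GCOS 1.4, Expression Console and RMA, without saying what each did. RMA normally returns log2 values, and how linear ones were obtained is not given in the sources used here. Here the deposited intensities were put on a log2 scale without a constant or an intensity filter.

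Probe sets with 1 gene symbol (19460) were reduced to the brightest per gene. Each of the 10 genes had 1 such probe set, so averaging probe sets changed nothing for them. Genes were tested with limma 3.58.1 in R 4.3.3 (two-sided, Benjamini-Hochberg over 18417 genes); errors of fold changes are standard errors of that model. The code was tested on simulated data. Exact permutation tests used scipy 1.17.1. Sequences came from RefSeq tables of GRCh38.p14; the files name no build. The 10 genes, the lists and the alternatives were chosen with earlier results of these data known. Named genes were the 10, up to 4 called genes per list by smallest adjusted p (or the 2 largest changes), IRF9, PRKCB, and the 5 nearest profiles; PARP15 and SP140L fall outside this rule. Alternatives were the replicate block, leaving out each array, other variance priors and array weights, 2 rescalings, a filter on dim genes, other probe-set rules and stricter thresholds.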

Additional observations from a re-analysis of the deposited data

How the results depend on the processing

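The 8 genes that rose kept their direction and their call under all 15 refits, and 8 also passed an adjusted p of 0.01. SP100 became a call without LY317615 replicate 3, and SP100 and SAMD9 both did after cyclic loess, with the values given above. With a log2 fold change of at least 1, 1 of the 10 was called, and 244 of all genes (55 higher, 189 lower); at an adjusted p of 0.01, 3586 of all genes were called (967 higher, 2619 lower). Among all genes 39.9% of calls were higher, and 28.6% (1810 higher, 4526 lower) with array medians set equal or 46.5% (2588 higher, 2979 lower) after cyclic loess. Leaving out 1 array gave 8 to 9 calls of the 10, 4609 to 6153 of all genes, 3 to 5 PARP relatives, 3 to 4 ADP-ribose erasers and readers, 3 to 4 PML-body genes and SP relatives, 1 to 5 interferon relay genes, 0 to 1 interferon genes and 11 to 13 genomic neighbours. At an adjusted p of 0.01 these lists had 3 PARP relatives, 2 erasers and readers, 0 deltex genes, 3 PML-body genes and 0 relay genes, and with a log2 fold change of at least 1 each had 0, while neighbours had 1. After cyclic loess 2 erasers and readers and 3 PML-body genes were called, and 3 erasers and readers when adjusted over all probe sets. With a variance prior that follows intensity, 1 interferon gene, IFNL3, was called. The causes were not tested. Pair differences kept their sign throughout.

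The correlations of the deviations of same-numbered arrays over genes were -0.02, 0.09 and 0.07, none over 0.1, so the numbers were not taken as pairs. LY317615 replicates 2 and 3 correlated best with their own number and LY317615 replicate 1 with another. With the replicate number as a block, 8 of the 10 and 6548 of all genes were called, and 1 interferon gene, IFNG, was added (adjusted p = 0.0372), while IFNGR1 lost its call (adjusted p = 0.0665). The block left the pair differences as they were, from -0.16 to 0.89, with an exact p of 0.25 for each. With so few replicates this paired exact test cannot go below 0.25, so none of the differences could pass.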
